A study of Mus musculus with 2 samples.

Results

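The 10 genes described here carry out the uptake, storage, export and sensing of iron: Trf, Tfrc, Slc11a2, Slc40a1, Ftl1, Fth1, Slc25a37, Hfe, Aco1 and Ireb2. They were picked by symbol for these roles, and their rows were found by gene identifier, 10 of 43346 mouse genes in the deposited tables. They were measured in total RNA of heart tissue from B6NCrl mice taken as embryos at day 11.5, labelled healthy and pooled from males and females, with no treatment given. There is 1 group of 2 libraries, each from 10 ng of RNA extracted with mirVana and with spike-in RNA added. Replicate 1 came from a pool of 109 embryos, and the number pooled for replicate 2 is not given. The labels number the libraries as biological replicates 1 and 2 and record separate biosamples under the same donor identifier. They do not say how the pools were kept apart, so the spread between the libraries may still be technical in part or whole. With 2 values, the smallest two-sided exact sign-flip p is 0.5, so levels are given as mean ± SD with no p.

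Iron travels in plasma bound to transferrin, which cells take up through the transferrin receptor; the iron is reduced and moved out of the endosome, then used in mitochondria, stored in ferritin or exported by ferroportin. In the embryo the main users of iron are the red blood cells that make heme, and the beating heart also needs it for respiration. When iron is scarce, the iron regulatory proteins bind stem-loops called iron-responsive elements (IREs) in messenger RNA. Binding in a 5′ untranslated region (UTR) blocks translation, as in ferritin, and binding in a 3′ UTR protects the transcript from decay, as in the transferrin receptor. RNA levels alone therefore do not give the protein levels of these genes.

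The stem-loop letters were searched for in the annotated UTRs of all genes, to find which transcripts of the 10 genes hold them. A match had the loop letters CAGTGN, preceded by a C and then 5 stem bases, read on the transcript strand. Every stem base had to pair with the 5 bases after the loop (G-T pairs allowed). Whether that C is unpaired, and what lies below it, was not examined. This rule was met in the 5′ UTR of 3 of the 10 genes and in the 3′ UTR of 1. Over all genes, 31 of 20899 with a 5′ UTR (0.148%) and 129 of 21028 with a 3′ UTR (0.613%) met it. Ftl1, Fth1, Slc40a1, Tfrc and Slc11a2 were named for the search beforehand, so these shares are no test of the 10 genes. Slc11a2 matched in its 3′ UTR when 4 of 5 stem pairs sufficed, a looser rule chosen after the data were seen, which 872 genes met (4.15%). A match describes the letters and is not evidence of binding. The 8 sites are shown as DNA letters from GENCODE M21 transcripts, 5′ to 3′, each 27 bases long with the 6 loop letters in capitals:
Fth1: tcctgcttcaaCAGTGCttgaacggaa
Ftl1: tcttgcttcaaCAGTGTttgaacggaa
Slc40a1: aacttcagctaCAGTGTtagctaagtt
Tfrc site 1: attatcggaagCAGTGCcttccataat
Tfrc site 2: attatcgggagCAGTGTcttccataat
Tfrc site 3: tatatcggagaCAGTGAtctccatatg
Tfrc site 4: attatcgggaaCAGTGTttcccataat
Slc11a2: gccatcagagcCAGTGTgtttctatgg

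In mm10 (GRCm38), the Fth1 site lies at chr19:9982733-9982759 on the + strand and the Ftl1 site at chr7:45459780-45459806 on the − strand, both in the 5′ UTR within exon 1 of 4. The sites of both ferritin chains share 25 of 27 bases, and counted from the 5′ end of the site the Fth1-to-Ftl1 changes are C3T and C17T. The Slc40a1 site lies at chr1:45925466-45925492 on the − strand, in the 5′ UTR within exon 1 of 8. The 4 Tfrc sites lie in the 3′ UTR within exon 19 of 19, on the + strand, at chr16:32631220-32631246, chr16:32631599-32631625, chr16:32631664-32631690 and chr16:32631711-32631737. Over the 6 pairings of Tfrc sites, 17 to 25 of the 27 bases were the same. The Slc11a2 site lies at chr15:100395154-100395180 on the − strand, in the 3′ UTR within exon 16 of 16.

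**Figure D1:**
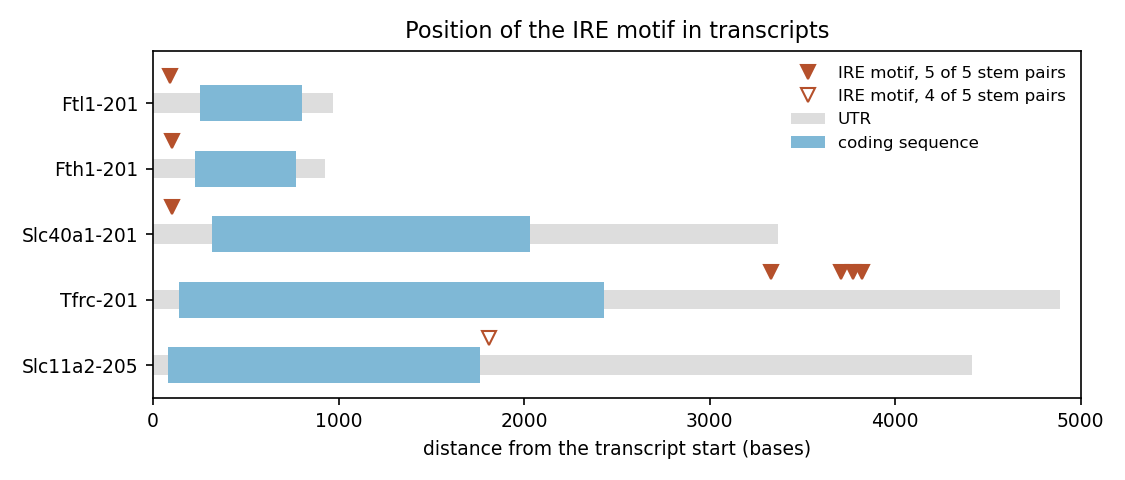
Position of the IRE letters (triangles) along 5 transcripts, in bases from the transcript start, with the coding sequence in blue and UTRs in grey. Ftl1-201, Fth1-201 and Slc40a1-201 have a site before the coding sequence, Tfrc-201 has 4 after it, and the open triangle on Slc11a2-205 marks a site with 4 of 5 stem pairs.

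Expected counts over mouse genes, the depth behind these values, came to 34447169 for replicate 1 and 25261719 for replicate 2. The tissue label was met by its markers: 6 of 6 cardiomyocyte genes were detected, with a summed level of 19799 TPM in replicate 1 and 21494 TPM in replicate 2. Erythroid genes were abundant too, 11 of 12 listed being found in the tables and all 11 detected, with summed levels of 53357 TPM in replicate 1 and 44750 TPM in replicate 2. In whole tissue, fewer cells of a type and less RNA per cell cannot be told apart, and the level of an iron gene was not assigned to any cell type.

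All 10 genes were detected, that is, at 1 TPM or more in both libraries (TPM is abundance per transcript length, scaled to the same sum over all rows of each library). Of 21474 protein-coding genes, 12118 (56.4%) were. The median level of the 10 was 36.1 TPM in replicate 1 and 31.1 TPM in replicate 2, against 15.7 TPM in replicate 1 and 16.2 TPM in replicate 2 for all detected protein-coding genes. The ferritin chains stood far above the other 8, whose means ran from 8.48 TPM (Hfe) to 53.7 TPM (Slc25a37).

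**Figure D2:**
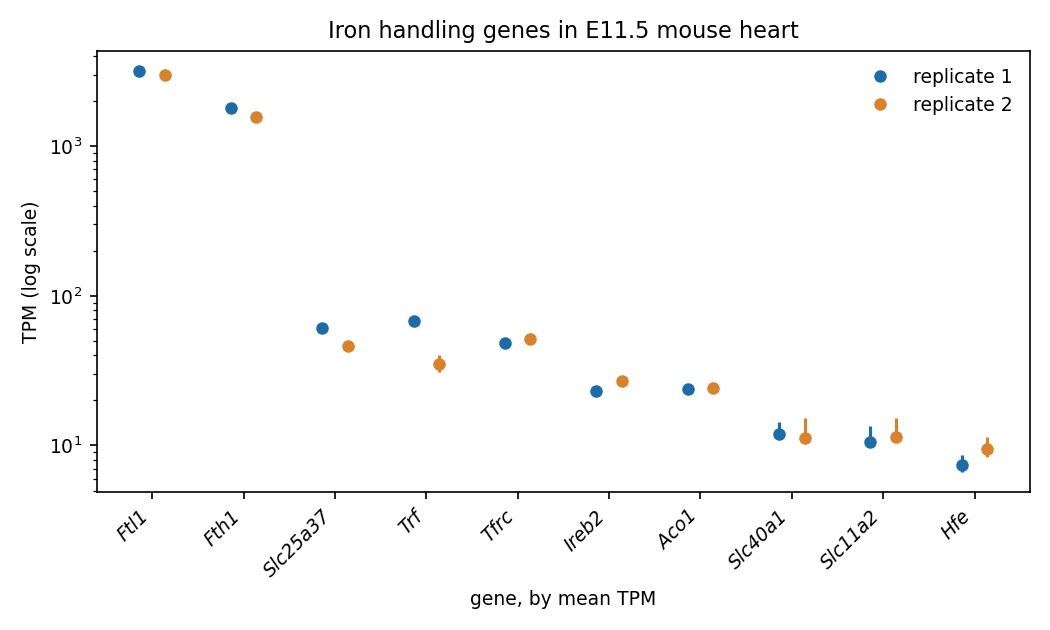
Level of each gene in TPM (log axis), replicate 1 in blue and replicate 2 in orange, with vertical lines for the authors' deposited interval of the posterior mean, within which a point need not fall. Ftl1 and Fth1 lie at 1572 TPM or more, the other 8 genes at 68.1 TPM or less, and Trf shows the widest gap between libraries.

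Trf encodes transferrin, the iron carrier of plasma, made in adults mainly by the liver. The gene (chr9:103204001-103230444, − strand) had 68.1 TPM in replicate 1 and 35.0 TPM in replicate 2, from 3249 and 1291 expected counts, a mean of 51.5 ± 23.3 TPM (SD, n = 2). Its SD was the largest relative to its mean among the 10. The authors' deposited intervals, 62.8 to 73.4 TPM in replicate 1 and 30.8 to 40.1 TPM in replicate 2, did not overlap. Those of Ftl1, Fth1, Slc25a37 and Ireb2 did not overlap either, which makes 5 of the 10 genes. The share over all genes was not counted.

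Tfrc encodes transferrin receptor 1, the route by which most cells take up transferrin-bound iron. The gene (chr16:32608920-32632794, + strand) had 48.5 TPM in replicate 1 and 51.1 TPM in replicate 2, from 5138 and 3975 expected counts, a mean of 49.8 ± 1.87 TPM. Its libraries lay close together, and 79.7% of detected protein-coding genes had a lower level. Tfr2, which encodes the second transferrin receptor, had 1.56 TPM in replicate 1 and 1.19 TPM in replicate 2. The log2 ratio of Tfrc to Tfr2 was 5.19 ± 0.33, a 36.5-fold difference in level that held in both libraries.

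Per length, the receptor and its ligand had no fixed order. The log2 ratio of Tfrc to Trf was −0.49 in replicate 1 and 0.54 in replicate 2, so Trf was the higher in replicate 1 and Tfrc the higher in replicate 2. Hfe encodes a class I-like molecule that binds the transferrin receptor and takes part in iron sensing. The gene (chr13:23702034-23710854, − strand) had the lowest level of the 10, with 7.43 TPM in replicate 1 and 9.53 TPM in replicate 2, from 350 and 302 expected counts (mean 8.48 ± 1.48 TPM). Tfrc lay 5.91-fold above Hfe, a log2 ratio of 2.56 ± 0.20.

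Slc11a2 encodes DMT1, which carries ferrous iron across the endosome membrane and, in the adult gut, into the cell. The gene (chr15:100387898-100425072, − strand) had 10.6 TPM in replicate 1 and 11.4 TPM in replicate 2, from 928 and 735 expected counts (mean 11.0 ± 0.58 TPM). Slc39a14, which encodes the metal transporter ZIP14, had 3.69 TPM in replicate 1 and 3.84 TPM in replicate 2. Slc11a2 was the higher of this pair in both libraries, by 2.93-fold (log2 ratio 1.55 ± 0.035). Slc39a8, another gene of cellular iron uptake, lay above both, with 38.0 TPM in replicate 1 and 33.9 TPM in replicate 2.

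Slc40a1 encodes ferroportin, the iron exporter of mammalian cells. The gene (chr1:45908068-45926523, − strand) had 12.0 TPM in replicate 1 and 11.2 TPM in replicate 2, from 1012 and 691 expected counts (mean 11.6 ± 0.573 TPM). The exporter lay below the receptor in both libraries, by 4.30-fold (log2 ratio of Slc40a1 to Tfrc −2.10 ± 0.126). Its level and that of Slc11a2 could not be ordered, since Slc40a1 was the higher in replicate 1 and Slc11a2 in replicate 2 (log2 ratio of Slc11a2 to Slc40a1 −0.07 ± 0.147).

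Ferritin, the hollow shell in which cells store iron, is built of light chains (Ftl1) and heavy chains (Fth1), the heavy chain carrying the site that oxidises iron. Ftl1 (chr7:45457944-45459884, − strand) had 3185 TPM in replicate 1 and 2985 TPM in replicate 2, from 78718 and 52114 expected counts (mean 3085 ± 141 TPM), rank 19 among protein-coding genes. Fth1 (chr19:9980598-9985098, + strand) had 1798 TPM in replicate 1 and 1572 TPM in replicate 2, from 39351 and 24287 expected counts (mean 1685 ± 160 TPM), rank 38. The light chain was the higher in both libraries, by 1.83-fold (log2 ratio of Fth1 to Ftl1 −0.88 ± 0.071).

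Together the ferritin chains took 0.343% of all mouse counts for replicate 1 and 0.302% for replicate 2, with 95% intervals by Wilson's method of 0.341 to 0.345% for replicate 1 and 0.300 to 0.305% for replicate 2. They made up 95.1% of the summed TPM of the 10 genes in replicate 1 and 95.5% in replicate 2. Ncoa4, the receptor that delivers ferritin for breakdown, had 102 TPM in replicate 1 and 112 TPM in replicate 2. That placed it 15.8-fold below Fth1 (log2 ratio of Ncoa4 to Fth1 −3.98 ± 0.23).

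Ferritin genes have near-identical copies in the genome, among which the authors' model divided the reads. In the tables, 7 copies matched Ftl1 at 90% identity or more over at least 50% of its transcript, and they held 1.16% as many counts as Ftl1. Most of these counts were in Ftl1-ps1, which matched Ftl1 at 99.6% over 910 bases and had 36.2 TPM in both libraries. A microRNA gene annotated inside Ftl1, Gm22133, held a further 1.03%. Fth1 had 1 such copy, with 0.114% as many counts.

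Slc25a37 encodes mitoferrin 1, which brings iron into mitochondria and is needed in erythroid cells for heme. The gene (chr14:69241848-69285112, − strand) had 61.2 TPM in replicate 1 and 46.2 TPM in replicate 2, from 7336 and 3998 expected counts (mean 53.7 ± 10.6 TPM). Slc25a28, which encodes the more widely expressed mitoferrin 2, had 5.15 TPM in replicate 1 and 3.40 TPM in replicate 2. Mitoferrin 1 was the higher in both libraries, by 12.7-fold (log2 ratio 3.67 ± 0.138).

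Aco1 and Ireb2 encode the iron regulatory proteins that bind IREs, IRP1 and IRP2. IRP1 doubles as the cytosolic aconitase when it holds an iron-sulfur cluster, and IRP2 is broken down when iron is plentiful. Aco1 (chr4:40143081-40198338, + strand) had 23.8 TPM in replicate 1 and 24.4 TPM in replicate 2, from 2357 and 1832 expected counts (mean 24.1 ± 0.417 TPM). Ireb2 (chr9:54863789-54912530, + strand) had 23.1 TPM in replicate 1 and 27.1 TPM in replicate 2, from 3755 and 3113 expected counts (mean 25.1 ± 2.84 TPM). The levels of both regulators overlapped across libraries, with Aco1 the higher in replicate 1 and Ireb2 in replicate 2 (log2 ratio of Ireb2 to Aco1 0.05 ± 0.139).

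Ordered by mean TPM, the genes ran Ftl1, Fth1, Slc25a37, Trf, Tfrc, Ireb2, Aco1, Slc40a1, Slc11a2 and Hfe. Ftl1 lay wholly above Fth1, Fth1 above Slc25a37 (31.4-fold between means), Tfrc above Ireb2 (1.99-fold), Aco1 above Slc40a1 (2.08-fold) and Slc11a2 above Hfe (1.30-fold). The other neighbours, Slc25a37 with Trf, Trf with Tfrc, Ireb2 with Aco1 and Slc40a1 with Slc11a2, had values that overlapped between libraries. In all, 7 of the 10 pairs examined were apart in both libraries. By expected counts without length, which do not compare levels between genes of different length, 9 were apart, Tfrc with Trf (log2 ratio 1.14) and Ireb2 with Aco1 (0.72) being added. Without length, the log2 ratio of Ncoa4 to Fth1 was −1.93, of Slc25a37 to Slc25a28 5.25, of Tfrc to Hfe 3.80 and of Slc11a2 to Slc39a14 2.33, each over 1.5-fold from its value per length with the same gene higher. The detected protein-coding genes closest in level over the 2 libraries were found by distance in log2 TPM. They were Snap23 to Tfrc, Mt2 to Trf, Eef1a1 to Ftl1, Hist1h2ap to Fth1 and Slc31a2 to Slc11a2. The rest were Zbtb25 to Slc40a1, Spr to Slc25a37, Cblb to Hfe, Smim15 to Aco1 and Dhcr7 to Ireb2. With 2 values per gene, this likeness is one of level and carries no pattern across conditions.

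The transcript tables split each gene's TPM into annotated transcripts, and in each of the 10 genes the same transcript held over 50% of the TPM in both libraries. How often this holds over all genes was not counted, so it is not read as a trait of the 10. Fth1 and Ireb2 each had a single transcript. Ftl1-201 held 98.7% of Ftl1 in replicate 1 and 98.9% in replicate 2, so nearly all ferritin light-chain RNA was assigned to a transcript with the 5′ UTR site. The length of Fth1-201 in the deposited tables, 866 bases, is shorter than the 929 bases of the M21 transcript in which the site was read.

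**Figure D3:**
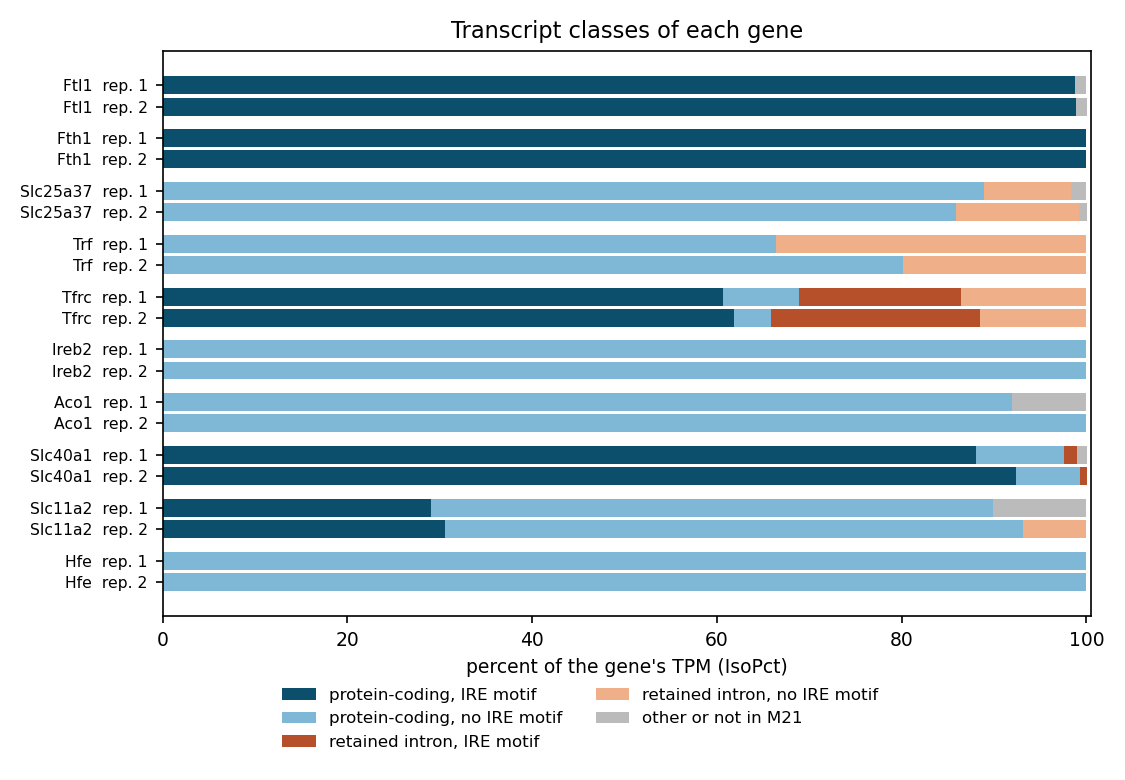
Share of each gene's TPM (percent) by transcript class in both libraries, dark colours for transcripts with the IRE letters, blue for protein-coding and orange for retained-intron transcripts, grey for the rest. Retained-intron transcripts took 31.1% of Tfrc in replicate 1 and 34.1% in replicate 2, and a transcript with the site was the minor form in Slc11a2.

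Slc11a2 was the only gene of the 5 with sites in which the transcript holding the site was not the leading one. Slc11a2-205, with the site, had 3.09 TPM in replicate 1 and 3.49 TPM in replicate 2, which is 29.1% and 30.6% of the gene. Slc11a2-201, whose 3′ UTR lacked the letters, had 6.45 TPM in replicate 1 and 7.15 TPM in replicate 2. The form without the site was 2.07-fold the higher in TPM (log2 ratio of 205 to 201 −1.05 ± 0.019) and 1.40-fold in expected counts. DMT1 is known to be made from messages with and without an IRE, through alternative 3′ ends.

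In Tfrc, the coding transcript Tfrc-201, with all 4 sites, held 60.6% of the TPM in replicate 1 and 61.8% in replicate 2. A retained-intron transcript that carries the sites too, Tfrc-204, held 17.6% in replicate 1 and 22.6% in replicate 2. A shorter one without them, Tfrc-205, held 13.4% in replicate 1 and 11.5% in replicate 2, from only 87.2 and 55.9 expected counts. By expected counts, which are not divided by length, transcripts with the sites held 94.4% of Tfrc in replicate 1 and 96.7% in replicate 2. Counting coding transcripts only, Tfrc had 33.4 TPM in replicate 1 and 33.7 TPM in replicate 2. In Slc40a1, transcripts with the 5′ UTR site made up 89.5% of the TPM in replicate 1 and 93.1% in replicate 2, nearly all of it in Slc40a1-201.

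Among the genes without sites, the share of the leading transcript varied. Slc25a37-201 held 88.7% of the TPM in replicate 1 and 85.9% in replicate 2, and Aco1-201 held 91.9% in replicate 1 and 100% in replicate 2. Hfe was divided among coding transcripts alone: Hfe-202 held 75.3% in replicate 1 and 55.1% in replicate 2, on 350 and 302 counts for the whole gene. In Trf the coding transcript Trf-201 held 61.9% in replicate 1 and 67.8% in replicate 2. A retained-intron transcript of 433 bases, Trf-209, held 33.2% of Trf in replicate 1 and 19.6% in replicate 2, from 215 and 46 expected counts. Over coding transcripts only, Trf had 45.2 TPM in replicate 1 and 28.1 TPM in replicate 2, a 1.61-fold difference against 1.94-fold for the gene's TPM. A gene that overlaps Trf on the same strand, Gm20425, had 69.4 counts in replicate 1 and 0 in replicate 2, 1.53% as many as Trf.

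The libraries were then compared gene by gene with an exact two-sided binomial test of rounded expected counts, scaled by TMM, with Benjamini-Hochberg adjustment over 16621 genes. It compares these 2 libraries, covers counting error only and tests no condition. At a 2-fold difference and an adjusted p under 0.05, 4.69% of genes were called and 0 of the 10. At 1.5-fold, 9.00% of genes were called and 1 of the 10, Trf. Among genes with a summed count of 500 or more, a minimum chosen after the data were seen, 2.23% were called at 1.5-fold and again 1 of the 10. At any fold, 39.6% of genes passed and 6 of the 10 did: Trf, Slc25a37, Fth1 and Ftl1 were higher in replicate 1, and Tfrc and Ireb2 lower.

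Trf had a log2 ratio of replicate 1 over replicate 2 of 0.88 (95% counting interval 0.78 to 0.97, exact binomial test, adjusted p = 8.01e-80), 1.84-fold. Over all 16621 genes tested, the central 95% of log2 ratios ran from −0.84 to 1.34, a range that holds Trf, and 5.499% of genes had a higher ratio. Over the 10420 genes with 500 or more counts, the central 95% of log2 ratios ran from −0.47 to 0.47, and 0.278% of these genes had a ratio above that of Trf. Slc25a37 had a log2 ratio of 0.42 (0.37 to 0.48), within both ranges. The remaining 8 genes lay between −0.24 (Hfe) and 0.24 (Fth1). Of the 10 genes, 5 were higher and 5 lower in replicate 1.

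**Figure D4:**
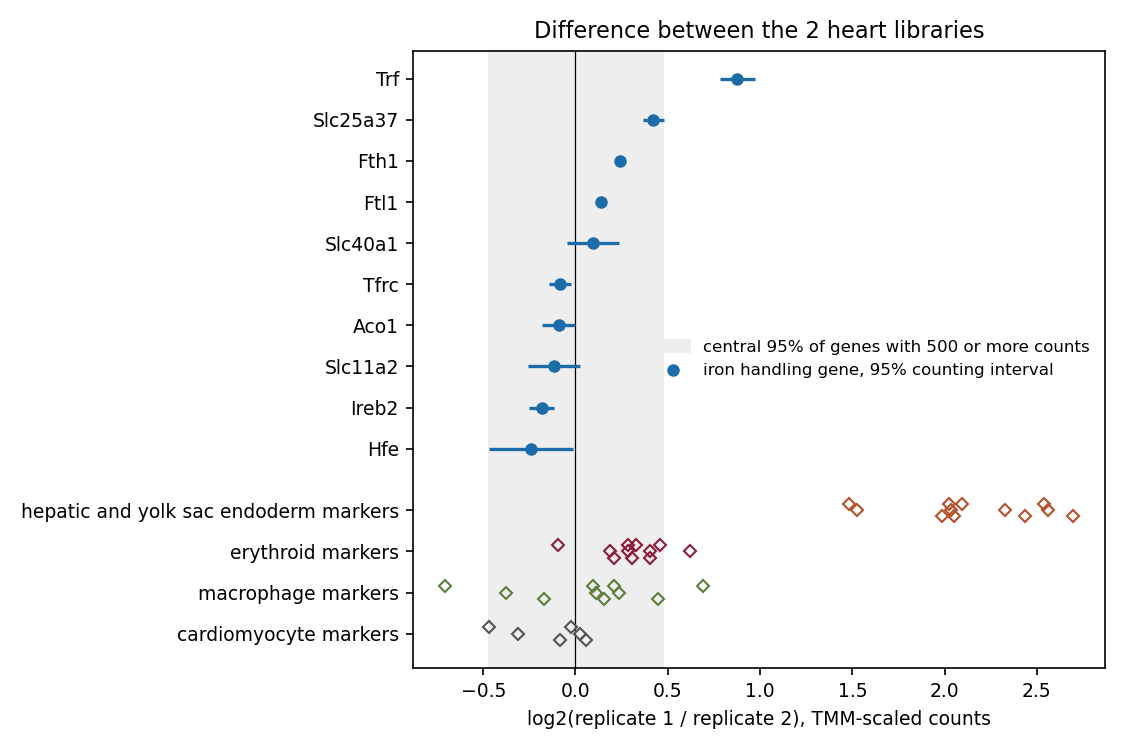
Log2 ratio of replicate 1 over replicate 2 for the 10 genes (blue, lines for 95% counting intervals) and for marker genes of 4 cell types (diamonds), with the central 95% of genes of 500 or more counts in grey. Trf, at 0.88, is the only one of the 10 whose ratio lies outside the grey band, though inside the −0.84 to 1.34 of all 16621 genes tested, and all 12 hepatic and yolk sac markers lie at 1.48 or above.

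Markers of other cell types differed between the same libraries. All 12 hepatic and yolk sac endoderm genes measured were called higher in replicate 1 at 2-fold, with a median log2 ratio of 2.07 and summed levels of 227 TPM in replicate 1 and 45.2 TPM in replicate 2. None of the 12 was at 0 in both libraries, and 8 of 12 were detected. Afp, an oncofetal plasma protein of these tissues, had 102 TPM in replicate 1 and 16.3 TPM in replicate 2, and Alb, serum albumin, had 13.6 TPM in replicate 1 and 2.37 TPM in replicate 2. Trf moved in the same direction as these genes and by less, and their part in its difference was not tested. The 11 erythroid genes had a median log2 ratio of 0.31 and a summed level 1.19-fold higher in replicate 1, with 0 called at 2-fold; 10 of the 11 passed an adjusted p of 0.05 in the direction of replicate 1 and Slc4a1, which encodes the red cell anion exchanger, in the other. The part of erythroid RNA in the difference of Slc25a37 was not tested. The macrophage list, whose cells recycle iron, had summed levels of 104 TPM in replicate 1 and 105 TPM in replicate 2. At 2-fold, 0 of 10 were called. At an adjusted p under 0.05 alone, 1 macrophage gene was higher in replicate 1 (Fcer1g, log2 ratio 0.69). The 2 lower ones were Adgre1 (−0.71) and Lyz2 (−0.17). Of 6 cardiomyocyte genes, 1 passed as higher and 4 as lower in replicate 1, the list running from −0.47 to 0.06.

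Of 42 other genes of iron handling, named from a list of known roles, 30 were detected (71.4%). The median over all 42, detected or not, was 7.68 TPM in replicate 1 and 10.9 TPM in replicate 2. Over all protein-coding genes, detected or not, it was 2.94 TPM in replicate 1 and 2.91 TPM in replicate 2. The highest were Snx3, which returns the transferrin receptor to the cell surface (280 TPM in both libraries), Pcbp1, an iron chaperone that loads ferritin (230 TPM in replicate 1 and 258 TPM in replicate 2), Glrx5, of iron-sulfur cluster assembly (214 TPM in replicate 1 and 186 TPM in replicate 2), and Ncoa4. By role, 9 of 9 mitochondrial iron genes and 4 of 4 heme iron genes were detected. Of the others, 8 of 11 cellular uptake, 3 of 4 storage, 4 of 7 systemic sensing and 1 of 3 export genes were, and so was the 1 gene that acts on the IRE-binding proteins. Of 3 carriers other than Trf, 0 were detected.

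**Figure D5:**
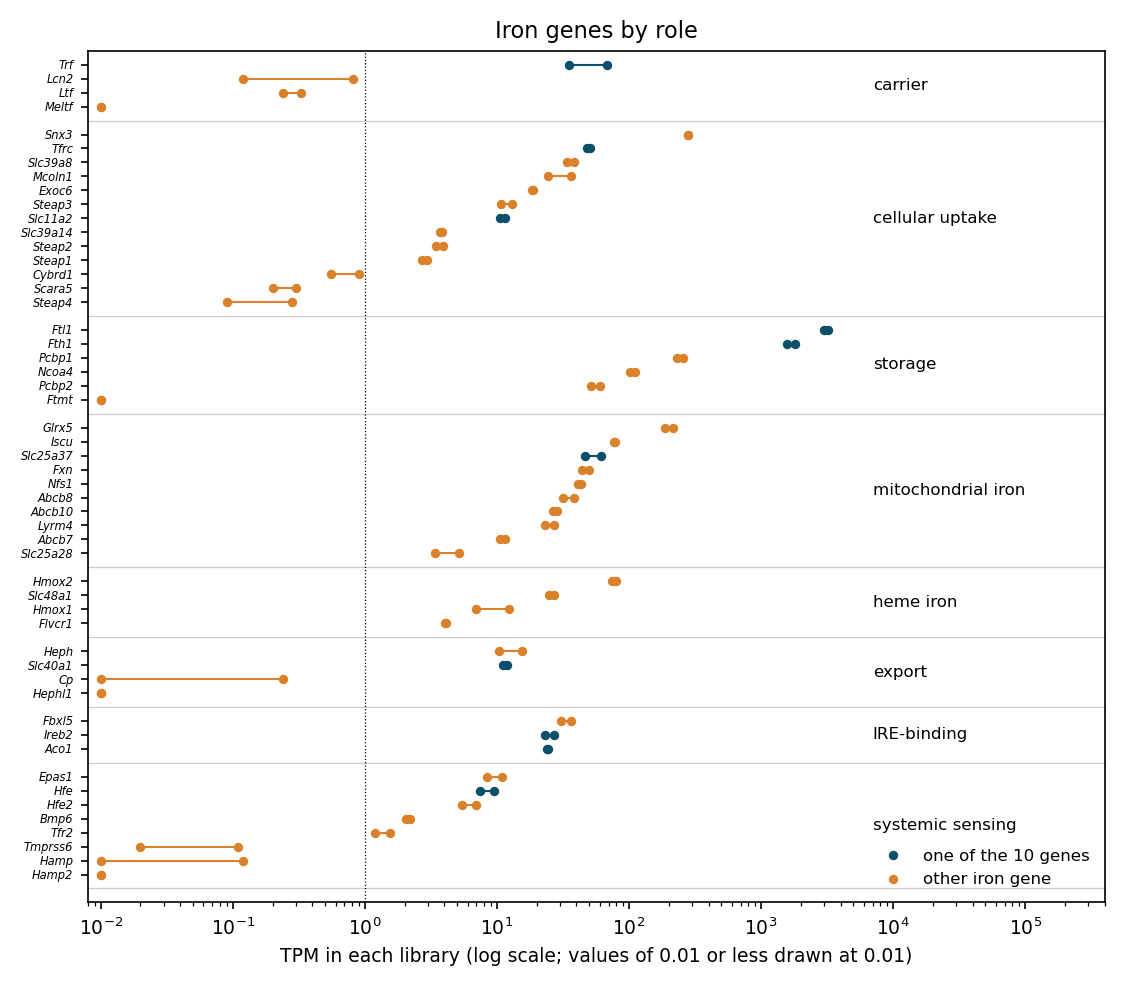
Level of the 10 genes (dark blue) and 42 other iron genes (orange) in TPM on a log axis, grouped by role, a line joining the 2 libraries of each gene and the dotted line marking the detection minimum of 1 TPM. The ferritin chains lie farthest right, and Trf is the only carrier above the dotted line.

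The remaining 12 genes lay below the detection minimum. Lcn2, a siderophore-binding carrier, had 0.82 TPM in replicate 1 and 0.12 TPM in replicate 2, and lactoferrin (Ltf) had 0.33 TPM in replicate 1 and 0.24 TPM in replicate 2. Of the uptake genes, the gut ferric reductase Cybrd1 had 0.55 TPM in replicate 1 and 0.91 TPM in replicate 2, the ferritin receptor Scara5 had 0.30 and 0.20 TPM, and the metalloreductase Steap4 had 0.09 and 0.28 TPM. Ceruloplasmin (Cp), a plasma ferroxidase, had 9 counts in replicate 1 and 1 in replicate 2, and Tmprss6, a protease that restrains hepcidin, had 10 counts in replicate 1 and 1 in replicate 2. Hepcidin (Hamp), the liver hormone that removes ferroportin from the cell surface, had 1 count in replicate 1 and 0 in replicate 2, and Meltf had 0 counts in replicate 1 and 1 in replicate 2. Ftmt, Hephl1 and Hamp2 had 0 counts in both libraries, which allows at most 3 counts, or 0.0871 CPM for replicate 1 and 0.119 CPM for replicate 2.

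Between the libraries, 2 of 35 of these other genes tested were called at 2-fold, against 779 of all 16621 genes tested (4.69%). Lcn2 had a log2 ratio of 2.51 (95% counting interval 0.74 to 5.94), from 19 counts in replicate 1 and 2 in replicate 2. Steap4 had a log2 ratio of −1.50, from 8 counts in replicate 1 and 17 in replicate 2. At 1.5-fold, 5 of 35 were called, against 1496 of all 16621 genes tested (9.00%). The further ones were the heme oxygenase Hmox1 (−0.80), Slc25a28 (0.64) and Cybrd1 (−0.68).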

How the data were processed

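The authors deposited, per the file headers, expected counts (estimated reads, not normalized), TPM with interval bounds of unstated level, and the percent of a gene's TPM in each transcript (IsoPct), for each library. README texts name mm10 and annotation release M4. For aligner, quantifier and strand setting, each is not given in the sources used here, so overlapping and antisense genes cannot be separated. Symbols, coordinates and UTRs came from GENCODE M21 on the same assembly (42462 of 43346 genes matched, 98.0%).

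TPM was used as deposited. Expected counts were rounded and scaled by TMM (edgeR 4.0.16, R 4.3.3), and the exact binomial test covered genes with a summed count of 20 or more, 0.5 being added to each count for ratios. A quasi-likelihood test was not used, because there is 1 group. DESeq2 1.42.0 size factors were an alternative. The test was checked on simulated counts that hold counting error only, so the check does not cover other variation between libraries. Ferritin copies were found with blastn 2.17.0. Intervals and limits cover counting error only. The 10 genes, gene pairs, iron gene list and marker lists were chosen with earlier results of these data known. Other iron genes were named with values if in a pair, among the 4 highest, below detection or called between libraries. Slc39a8 was named as well, after its values were seen. Total counts per library, posterior means, other minimums, rescaled TPM and leaving out each library were tried.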

Additional observations from a re-analysis of the deposited data

How the results depend on the processing

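The median level of the 10 genes, 33.6 TPM as the mean of both libraries' medians, was 42.02 TPM when rescaled to nuclear mouse genes, 51.4 TPM over nuclear coding genes without globins and 99.8 CPM without length, and ran from 31.1 to 36.1 TPM with either library left out. The rescaling multiplies every gene of a library by 1 factor (1.25 in replicate 1 and 1.26 in replicate 2 for nuclear genes, 1.55 and 1.51 for coding genes without globins), so it leaves ratios within a library as they were. The number of genes called between libraries, 779 at 2-fold, was 1496 at 1.5-fold and 31 with a summed count of 500 or more, an alternative chosen after the data were seen, and 761 to 1141 under the others. The number of the 10 genes called, 0, was 1 at 1.5-fold. Gene pairs apart numbered 7, and 9 by counts without length. With a library left out, the log2 ratios of 3 pairs that were not apart changed sign: Ireb2 to Aco1 ran from −0.04 to 0.15, Tfrc to Trf from −0.49 to 0.54 and Slc11a2 to Slc40a1 from −0.18 to 0.03. All 10 genes were detected, and had 1 transcript over 50%, under every alternative run for those results. No pair that was apart changed direction in any alternative run. Among all results, 122 values under the alternatives were classed as the same and 50 as moved. Counts of genes called or pairs apart have no spread between libraries. For them the same class takes in changes such as 779 to 1141 genes and 7 to 9 pairs. No paired analysis was possible because there is 1 group. Depth limits Hfe most, with 302 counts in replicate 2.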

Other observations

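Beyond the 10 genes, the same IRE letters with 5 of 5 stem pairs stood in the 5′ UTR of Alas2, long known to carry the element and chosen here after its values were seen. Alas2, which encodes the first enzyme of heme synthesis in erythroid cells, had 144 TPM in replicate 1 and 129 TPM in replicate 2.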
